A study of Mus musculus with 6 samples.

Results

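Vwf-gated cells are cells of the aorta that passed an endothelial gate and carried at least 1 UMI (unique molecular identifier, a tag for 1 captured transcript) of Vwf and none of Gja5, Bmx, Gkn3 or Gpihbp1. A cell entered the endothelial gate with at least 3 UMIs of Pecam1, Cdh5 and Egfl7 together and none of Prox1, Mmrn1 or Ptprc. The last condition was meant to leave out lymphatic endothelium and leukocytes but does not ensure their absence. Up to 13 lymphatic marker UMIs and 101 macrophage marker UMIs were found in a Vwf-gated cell. The gate held 3568 of 59413 cells, and 156 of them were Vwf-gated. They were set beside 444 cells with Gja5, Bmx or Gkn3 but no Gpihbp1 and 1967 cells with Gpihbp1 but none of those 3 genes. A further 175 cells carried both kinds of marker, and 826 carried none of them and no Vwf. The cells were selected on the measured UMIs of these 11 genes, whose values in the same cells are given as a description with no test. Genes outside the rule vary from cell to cell together with genes inside it, so the counts of differing genes describe the gate and are no independent support for the label.

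The series measured RNA in single cells of whole digested aortas from C57B/6J mice, all 18 weeks old, by droplet sequencing of 3′ transcript ends. There were 3 samples labelled high-fat diet and 3 labelled control, and the title concerns Klf2 in VCAM1-positive endothelial cells. The labels do not say that the samples of a group came from separate animals, so each p-value reflects no more than the spread among the samples at hand. No sort is described, and each sample's matrix joined 2 sets of barcodes, told apart by a suffix of 1 or 2.

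Von Willebrand factor is a large glycoprotein that endothelial cells store in Weibel-Palade bodies and release to tether platelets. In most vascular beds it is more abundant in large vessels and veins than in capillaries. Venules and veins express the transcription factor Nr2f2, the chemokine-binding receptor Ackr1 and P-selectin (Selp), which captures rolling leukocytes. Arterial endothelium expresses the connexins Gja5 and Gja4 and the transcription factor Sox17, and capillary endothelium anchors lipoprotein lipase through Gpihbp1. The aorta holds both its own lining and the small vessels of its outer wall, the vasa vasorum.

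The deposited matrices held 41388034 to 83886418 UMIs a sample. After cells with under 300 genes or with 20% or more mitochondrial UMIs were left out, 6552 to 16568 cells remained in each. Pairs of samples shared 61 to 260 cell barcodes, at most 2.81% of the smaller sample. Scrublet gave 1379 cells (2.32%) a doublet score above 0.25, among them 6 Vwf-gated cells, and these were kept. The median depth was 4151.5 UMIs in Vwf-gated cells, 4365.5 in Gja5/Bmx/Gkn3-gated cells and 3569 in Gpihbp1-gated cells.

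Vwf-gated cells were found in every sample, 23, 38 and 21 of them in high-fat diet samples 1 to 3 and 27, 24 and 23 in control samples 1 to 3. Levels below are CPM, each gene's UMIs scaled to a common total of the UMIs summed over a class of cells in 1 sample. In such a sum, fewer cells with a gene and less RNA per cell cannot be told apart. Vwf (chr6:125546774-125686679 on the plus strand, GRCm38) reached 610, 306 and 817 CPM in the high-fat diet samples and 145, 980 and 938 CPM in the controls. Cdh5, the adherens junction cadherin of endothelium, was at 243, 45.3 and 396 CPM in the high-fat diet samples and at 48.4, 297 and 542 CPM in the controls. High-fat diet sample 2 and control sample 1 were the lowest of their groups for both genes, and the groups overlapped.

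The label of an endothelial population did not hold for all Vwf-gated cells. Of the 156, 41 (26.3%, Wilson 95% interval 20.005 to 33.7%, which covers counting error only) took at least 1% of their UMIs from 6 smooth muscle markers. That share was 6.98% in Gja5/Bmx/Gkn3-gated cells, 7.12% in Gpihbp1-gated cells and 44.1% in the 826 cells without any of the class markers. These smooth muscle-rich cells numbered 5, 18 and 2 in high-fat diet samples 1 to 3 and 15, 1 and 0 in control samples 1 to 3. High-fat diet sample 2 and control sample 1 therefore held 33 of the 41. The 41 cells had a median of 11192 UMIs, 38 of them had a single Vwf UMI, and 31 had no Cdh5. On the same share, 11 Vwf-gated cells lay between 0.75% and 1.5%, near the value that divides them. Both this division and the gene sets below were chosen after the values were seen and carry no test.

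Smooth muscle-rich cells were concentrated where Vwf was detected once. Among 75 cells with 1 Vwf UMI, 50.7% were smooth muscle-rich and the median depth was 8233 UMIs. Just outside the rule, the 826 endothelial-gated cells with no Vwf had 44.1% and 7383.5 UMIs. Among the 81 cells with 2 or more Vwf UMIs, up to 16 in a cell, only 3 were smooth muscle-rich, the median depth was 3655 UMIs, and only 3 came from control sample 1. At the endothelial threshold, the 29 Vwf-gated cells with exactly 3 UMIs of Pecam1, Cdh5 and Egfl7 were smooth muscle-rich in 65.5% of cases, against 62.0% of 79 cells with 2 such UMIs that the rule left out. Smooth muscle cells, taken as cells above the same 1% without any UMI of those 3 genes, carried Vwf in 3.56% of 8446 cells, at a median of 6123.5 UMIs. Whether free RNA or joined cells brought these UMIs into 1 droplet was not tested.

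**Figure D1:**
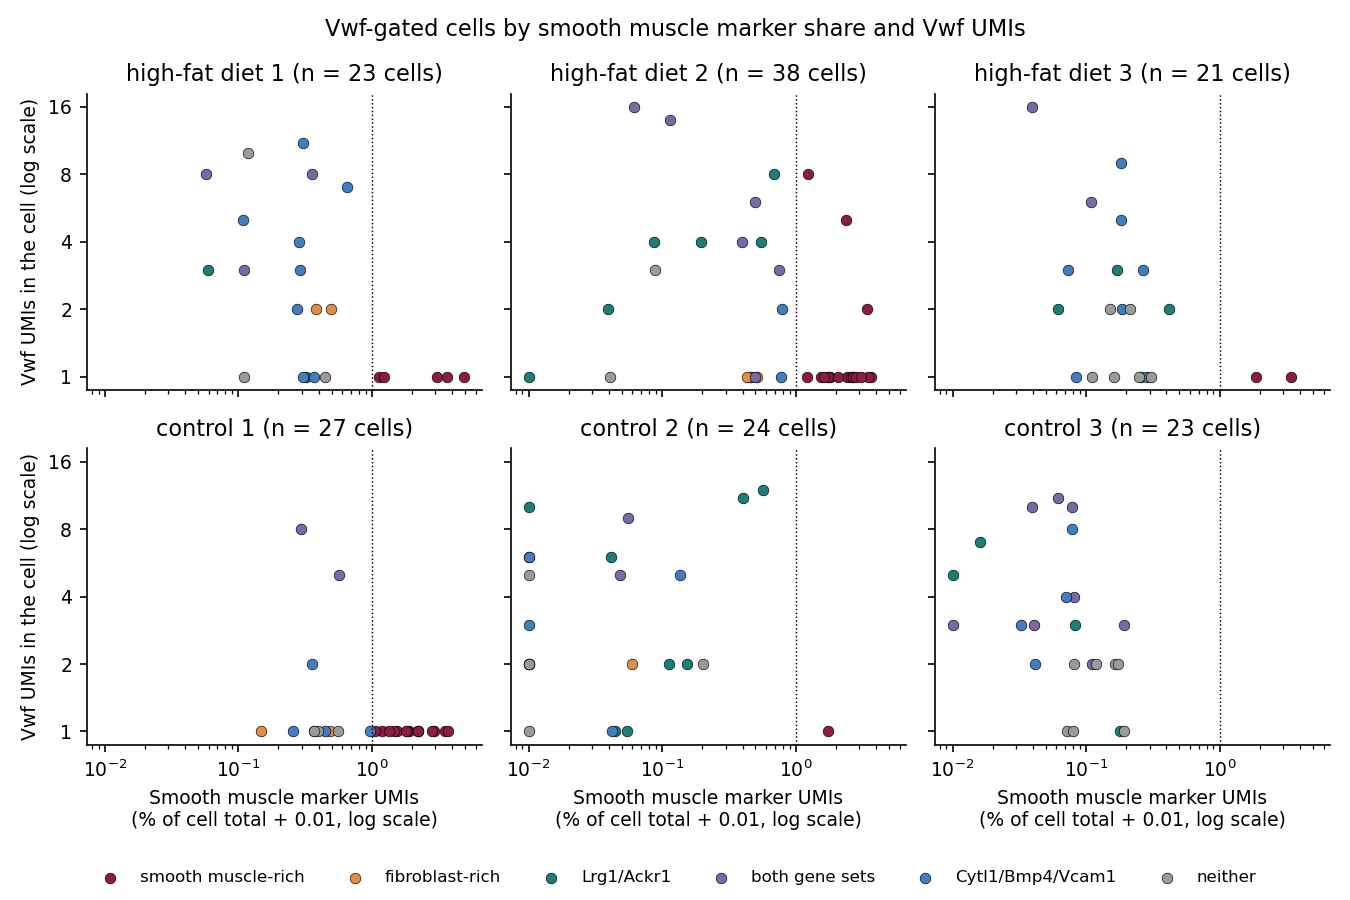
Each point is 1 Vwf-gated cell, with the share of its UMIs from 6 smooth muscle markers on the x axis (percent, log scale, 0.01 added), its Vwf UMIs on the y axis (log scale), and 1 panel per sample. Points right of the dotted line at 1% are the 41 smooth muscle-rich cells, 38 of which have 1 Vwf UMI.

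Of the 115 cells below 1% smooth muscle markers, 11 with at least 1% of their UMIs from 6 fibroblast markers were set apart beforehand. The remaining cells were divided by 2 gene sets. Lrg1, a secreted glycoprotein of inflamed and venular endothelium, and Ackr1 together reached 2 or more UMIs in 23 cells with fewer than 5 UMIs of the other set. The other set was Cytl1, a secreted cytokine-like protein, the growth factor Bmp4 and the adhesion receptor Vcam1. These together reached 5 or more UMIs in 33 cells with fewer than 2 UMIs of Lrg1 and Ackr1. A further 23 cells met both conditions and 25 met neither. The 11 fibroblast-rich cells were not divided by these sets, although their median Cytl1 was 7 UMIs. The Lrg1/Ackr1 cells numbered 2, 6 and 3 in high-fat diet samples and 0, 8 and 4 in controls. The Cytl1/Bmp4/Vcam1 cells numbered 8, 2 and 8 in high-fat diet samples and 4, 7 and 4 in controls. Neither count separated the diets.

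Pooled over samples, Plvap, the diaphragm protein of fenestrated and venular endothelium, was at 1572 CPM in Lrg1/Ackr1 cells, 1794 CPM in cells with both sets, 487 CPM in Cytl1/Bmp4/Vcam1 cells and 32.1 CPM in smooth muscle-rich cells. Plvap did not enter the definition of these sets. Vwf itself was at 1115 CPM in Lrg1/Ackr1 cells, 1648 CPM in cells with both, 811 CPM in Cytl1/Bmp4/Vcam1 cells and 100 CPM in smooth muscle-rich cells. Of the 172 Plvap UMIs in cells with both sets, 1 cell of control sample 1 held 35 and 1 cell of high-fat diet sample 1 held 34. The sets come from cutoffs on few UMIs, so the division alone does not show separate expression patterns. Among the 156 cells, Lrg1 was detected in 37.2% and Ackr1 in 12.2%.

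**Figure D2:**
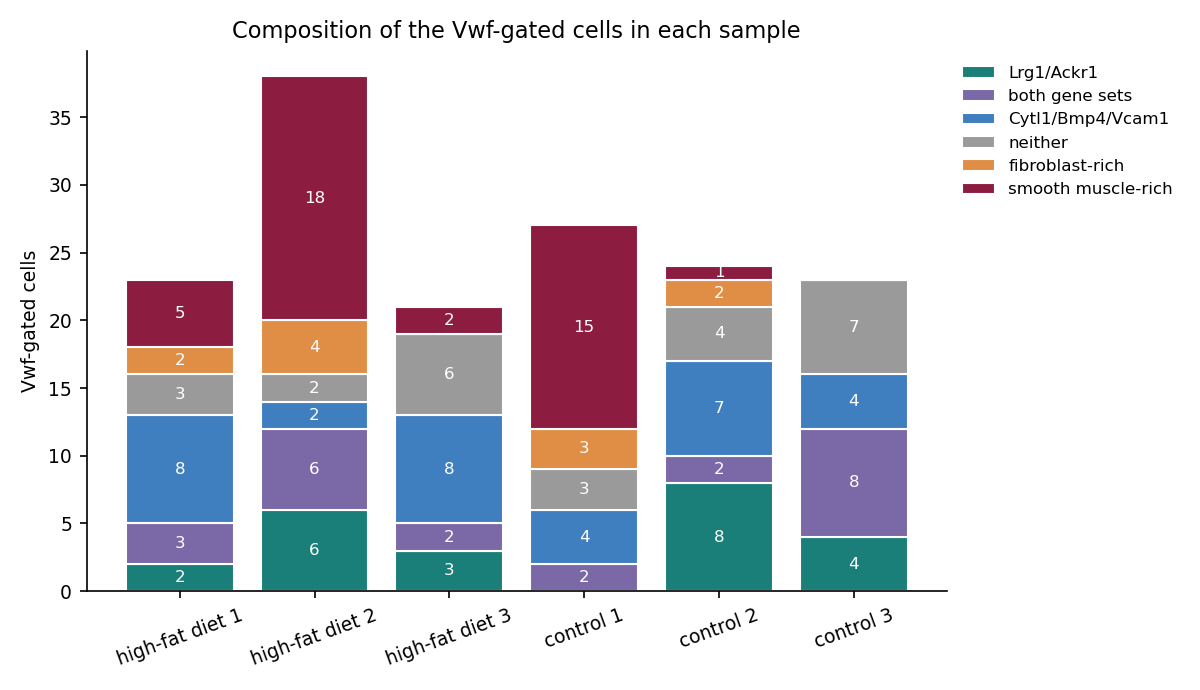
Bars give the number of Vwf-gated cells in each sample, divided into the 6 sets described in the text. High-fat diet sample 2 and control sample 1 have the largest smooth muscle-rich parts (18 and 15 cells), and control sample 3 has none.

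Detection of the venular genes per cell was set beside that in smooth muscle cells lacking Pecam1, Cdh5 and Egfl7, whose own expression of these genes was not tested. Ackr1 was detected in 12.2% of Vwf-gated cells, 2.93% of Gja5/Bmx/Gkn3-gated cells, 2.19% of Gpihbp1-gated cells and 0.758% of those smooth muscle cells. With every cell thinned to 2000 UMIs, which left out 11, 22, 257 and 240 shallower cells of the 4 classes, the shares were 8.97%, 1.42%, 0.877% and 0.317%. Lrg1 behaved likewise, at 29.0%, 7.35%, 5.56% and 1.72% after thinning and 37.2%, 11.7%, 9.56% and 5.19% before. Nr2f2 was detected in 48.7% of Vwf-gated cells, 20.05% of Gja5/Bmx/Gkn3-gated cells, 21.6% of Gpihbp1-gated cells and 48.2% of the smooth muscle cells, or in 25.5%, 10.2%, 10.6% and 23.4% after thinning. Pooled over samples, it was thus more frequent in Vwf-gated cells than in the other 2 endothelial classes and as frequent as in smooth muscle cells. In the comparisons of summed counts below, Nr2f2 was tested and was called against neither class. The smooth muscle-rich Vwf-gated cells carried Nr2f2 in 58.5% of cases. Its pooled level was 218 CPM in Vwf-gated cells under 1% smooth muscle markers and 90.7 CPM in the smooth muscle-rich ones. Selp, a marker given for the label, was found in 10.9% of Vwf-gated cells (8.97% thinned), below the 31.3% (17.8% thinned) of Gja5/Bmx/Gkn3-gated cells and above the 0.712% of Gpihbp1-gated cells.

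For comparisons of classes, counts were summed per sample and class, giving 18 sums, and edgeR's quasi-likelihood test was run with the sample as a block. Against Gja5/Bmx/Gkn3-gated cells, 177 of 5724 genes (3.09%) were higher and 201 (3.51%) were lower in Vwf-gated cells at a Benjamini-Hochberg adjusted p under 0.05, 6.6% together. Arterial, shear-responsive and MHC class I genes were among those on the lower side, while the venular genes that were abundant enough to test varied strongly between samples. With only cells of 2 or more Vwf UMIs, which left control sample 1 without a usable sum, 31 genes were higher and 27 lower. Without control sample 1 and high-fat diet sample 2, 54 were higher and 72 lower.

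Other arterial genes were mostly lower: 9 of 15 tested members were lower and none was higher, with a median log2 fold change of -1.53 against -0.00 over all genes. Of all genes, 3.51% were lower. Since Gja5, Bmx and Gkn3 were required to be absent from Vwf-gated cells and present in the other class, lower arterial genes follow closely from the rule. Sox17 was at 15.6, 14.2 and 76.5 CPM in high-fat diet and 3.72, 29.7 and 20.9 CPM in control Vwf-gated sums, against 72.8, 107 and 192 CPM in high-fat diet and 158, 190 and 136 CPM in control Gja5/Bmx/Gkn3-gated sums. Each sample's Vwf-gated sum was the lower one, and the log2 fold change was -2.71 (SE 0.35, adjusted p = 9.94e-05, edgeR quasi-likelihood test, Benjamini-Hochberg). The arterial ligand Efnb2 differed by -2.12 and the co-receptor Nrp1 by -1.54 on the log2 scale, and Gja4, Jag1, Mecom, Notch4, Sema3g and Stmn2 were also called. In cells with 2 or more Vwf UMIs, 4 of 16 arterial genes were lower (Efnb2, Nrp1, Sema3g and Sox17). Without the 2 samples rich in smooth muscle RNA, 5 of 16 were lower and the chemokine Cxcl12 was higher.

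Ackr1, of the venular genes, had a level higher than in the arterial gate in every sample, but few cells carried it. Its level (chr1:173331886-173333750 on the minus strand) was 46.9, 19.8 and 63.8 CPM in high-fat diet and 115, 69.3 and 136 CPM in control Vwf-gated sums. The Ackr1 UMIs came from 2, 4 and 1 cells in high-fat diet samples and 1, 5 and 6 cells in controls, and all 31 UMIs of control sample 1 and all 5 of high-fat diet sample 3 were in a single cell each. Gja5/Bmx/Gkn3-gated sums had 5.60, 0 and 7.68 CPM on the high-fat diet and 17.1, 2.07 and 12.03 CPM in controls, so the classes did not overlap. Non-overlap in the same direction held for 0.122% of the 5724 genes that passed the filter on low counts, which did not include Ackr1. In control sample 1 and high-fat diet sample 3 the position of the sum rests on 1 cell. The default filter on low counts left Ackr1 untested. Without that filter its log2 fold change was 3.26 (SE 0.39), and in cells with 2 or more Vwf UMIs it was 4.06 (SE 0.53). Of 11 venous and postcapillary genes that could be tested, 1 rose, the apelin receptor Aplnr (log2 fold change 3.34, adjusted p = 0.0014, edgeR quasi-likelihood, Benjamini-Hochberg), and none fell. Of all genes, 3.09% were higher and 3.51% lower. Aplnr had only 25 UMIs in the 156 Vwf-gated cells and 7 in the 444 Gja5/Bmx/Gkn3-gated cells. It had 1243 UMIs in Gpihbp1-gated cells, which contributed to its passing the filter on low counts. The list's median was 0.45. In cells with 2 or more Vwf UMIs, Ackr1 and the membrane protein Tmem252 passed the filter on low counts, to which their level in Vwf-gated cells contributed, and were called along with Aplnr. The calls of Ackr1 and Tmem252 are therefore no independent support for a difference.

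Lrg1 (chr17:56119678-56122001 on the minus strand) was at 446, 411 and 370 CPM in high-fat diet and 89.3, 673 and 886 CPM in control Vwf-gated sums. In Gja5/Bmx/Gkn3-gated sums it was at 92.3, 130 and 43.0 CPM on the high-fat diet and 85.6, 20.7 and 325 CPM in controls. Control sample 1, with 89.3 CPM, made the classes overlap, and the log2 fold change of 2.07 (SE 0.67) did not pass (adjusted p = 0.105, edgeR quasi-likelihood, Benjamini-Hochberg), although DESeq2 gave an adjusted p of 0.00296. Plvap differed by 0.85 and did not pass either.

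Of 12 luminal genes of the aortic lining, 3 were lower than in the arterial gate (Pi16, Ptprr and Sulf1) and none was higher. Of all genes, 3.51% were lower and 3.09% higher. Bmp4 was at 172, 93.5 and 191 CPM in high-fat diet and 101, 109 and 104 CPM in control Vwf-gated sums, against 702, 483 and 843 CPM in high-fat diet and 733, 834 and 365 CPM in control Gja5/Bmx/Gkn3-gated sums. The classes did not overlap, as for 0.961% of all genes on the lower side, and the log2 fold change was -2.39 (SE 0.18, adjusted p = 2.06e-08, edgeR quasi-likelihood, Benjamini-Hochberg). Vcam1 differed by -1.60 and Selp by -1.42 without passing (adjusted p = 0.0549 and 0.130, edgeR quasi-likelihood, Benjamini-Hochberg). DESeq2 called Vcam1, with an adjusted p of 0.00564.

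Klf2, a transcription factor that laminar flow induces in endothelium and the gene named in the title, had 383, 380 and 982 CPM in high-fat diet and 115, 584 and 375 CPM in control Vwf-gated sums. Gja5/Bmx/Gkn3-gated sums had 1005, 725 and 1226 CPM on the high-fat diet and 421, 725 and 678 CPM in controls. Every sample had less Klf2 in its Vwf-gated sum, with a log2 fold change of -0.89 (SE 0.16, adjusted p = 0.00154, edgeR quasi-likelihood, Benjamini-Hochberg). In cells with 2 or more Vwf UMIs the difference was -0.26 and did not pass (adjusted p = 0.613, edgeR quasi-likelihood, Benjamini-Hochberg). Of the Klf2 program, 6 of 11 tested members were lower (Klf2, Nos3, Cav1, Cyp1b1, S1pr1 and Slc9a3r2), with a median of -0.53. MHC class I genes, which present peptides to T cells, also had 6 of 11 members lower, with a median of -0.82. In cells with 2 or more Vwf UMIs, 1 member of each list was lower and the medians were -0.26 and -0.25, but calls were fewer for all genes there (0.452% lower, against 3.51%), and control sample 1 had no sum.

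Smooth muscle, pericyte and fibroblast RNA also differed between these classes, but not in the same direction in every sample. Summed smooth muscle markers were lower in the Vwf-gated sum of control sample 2 (2395 against 3212 CPM) and control sample 3 (761 against 3376 CPM). Pericyte markers were lower in control sample 3 (115 against 517 CPM) and fibroblast markers in high-fat diet sample 3 (1493 against 1839 CPM). In the remaining samples each of these sums was higher. All 6 smooth muscle markers had UMIs and summed to 6889 to 18327 CPM on the high-fat diet and 761 to 17685 CPM in controls in Vwf-gated sums, against 3136 to 12027 CPM on the high-fat diet and 3212 to 6293 CPM in controls in Gja5/Bmx/Gkn3-gated sums. One of the 6, Smtn, was called higher, and the list's median log2 fold change was 0.67. In cells with 2 or more Vwf UMIs none was called and the median was -0.91. All 5 pericyte markers that could be tested had positive values (median 1.23), and Abcc9 was called. Their sums ran from 395 to 1384 CPM on the high-fat diet and 115 to 491 CPM in controls in Vwf-gated sums, against 143 to 229 CPM on the high-fat diet and 116 to 517 CPM in controls in Gja5/Bmx/Gkn3-gated sums. Of 6 fibroblast markers 3 were higher (Col1a1, Col1a2 and Col3a1), against 3.09% of all genes, and none at the stricter gate. Among 11 endothelial identity genes, 4 were lower (Cldn5, Erg, Tek and Tie1), against 3.51% of all genes, with a median of -0.52. The part of RNA from other cell types in the lower arterial, Klf2 and MHC class I values was not tested.

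Among the genes with the largest called differences from the arterial gate, the alcohol dehydrogenases Adh7 (-5.01) and Adh1 (-2.84), the secreted Wnt antagonist Sfrp1 (-3.51), the epoxide hydrolase Ephx2 (-2.58) and the tight junction protein Cldn5 (-2.55) were lower on the log2 scale. On the higher side stood the neurotrophic ligand Nrtn (2.62), the cytokine receptor chain Csf2rb (2.55), Cd300lg (2.32), the lipoprotein receptor Scarb1 (2.13), the phosphodiesterase Pde2a (1.98) and the basement membrane collagen Col15a1 (1.95). Col15a1 was at 51.0 to 243 CPM in Vwf-gated sums and 16.04 to 49.6 CPM in Gja5/Bmx/Gkn3-gated sums, with no overlap. Basement membrane genes had 3 of 15 members higher (Col15a1, Col18a1 and Col4a1) and none lower, although Col4a1 was at -0.10 at the stricter Vwf gate. Of all genes, 3.09% were higher and 3.51% lower.

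**Figure D3:**
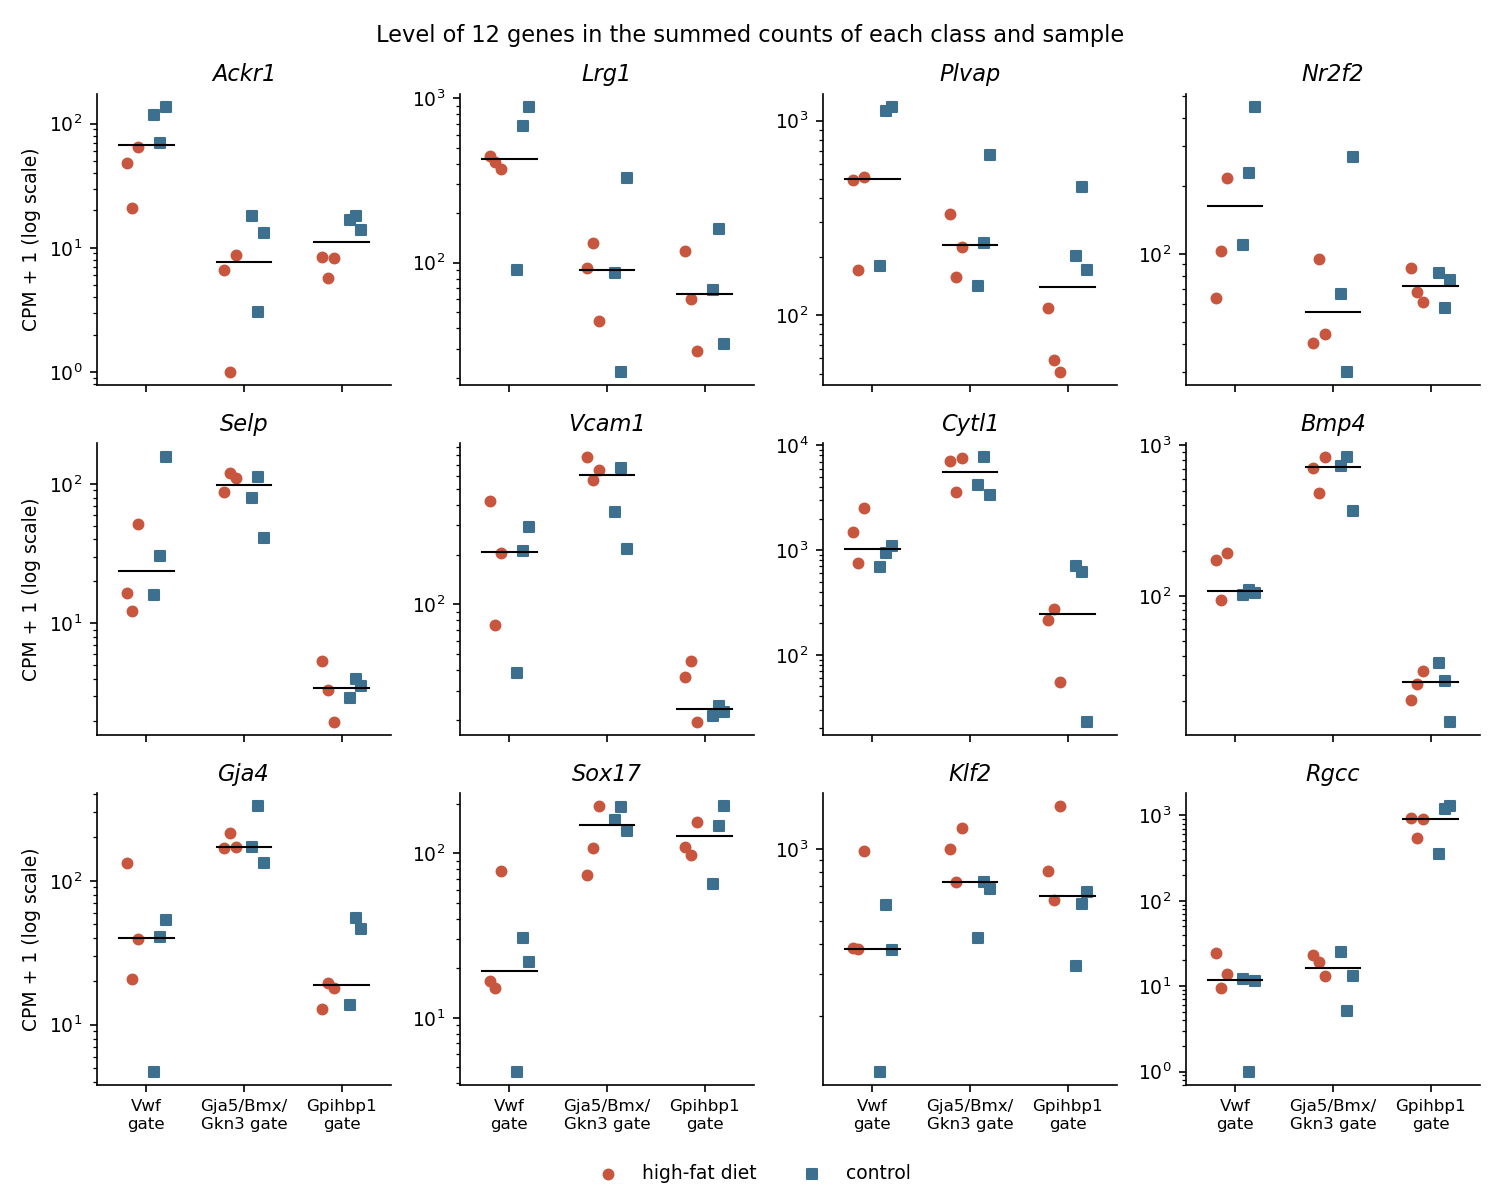
Points give the CPM of 12 genes in the summed counts of the Vwf-gated, Gja5/Bmx/Gkn3-gated and Gpihbp1-gated cells of each sample (log scale, 1 added), coloured by diet, with lines at the median over the 6 samples. Ackr1 is higher in all 6 Vwf-gated sums than in any other sum, and Bmp4 lies between the other 2 classes.

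Against Gpihbp1-gated cells, Vwf-gated cells had lower levels of capillary genes and higher levels of several venular, haemostatic and luminal genes. Of the 5724 genes, 529 (9.24%) were higher and 549 (9.59%) lower, 18.8% together, at an adjusted p under 0.05 (edgeR quasi-likelihood, Benjamini-Hochberg). All but 1 of 18 capillary genes fell, with a median log2 fold change of -3.00. Rgcc, a cell cycle regulator abundant in capillaries, was at 23.5, 8.50 and 12.8 CPM in high-fat diet and 11.2, 0 and 10.4 CPM in control Vwf-gated sums. Gpihbp1-gated sums had 925, 547 and 901 CPM on the high-fat diet and 350, 1193 and 1278 CPM in controls, with no overlap, which held on the lower side for 3.42% of all genes. The carbonic anhydrase Car4 differed by -6.18, and the fatty acid transporter Cd36 by -3.01, on the log2 scale. Genes of lipid uptake fell in 8 of 11 cases (Lpl, Pparg, Fabp4, Fabp5, Angptl4, Plin2, Scarb1 and Cd36) and rose in 1, Vldlr. The capillary genes were lower but not absent: pooled over samples, Fabp4 was at 1990 CPM in Vwf-gated cells, 1175 CPM in Gja5/Bmx/Gkn3-gated cells and 17382 CPM in Gpihbp1-gated cells. Against the arterial gate, 13 of 18 capillary genes had positive values (median 0.47) and Cd300lg was called. Since absence of Gpihbp1 defined the Vwf-gated cells, this side of the comparison follows closely from the rule.

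Of 11 venous genes, 6 were higher than in Gpihbp1-gated cells (Bst1, Cpe, Ctsh, Lrg1, Plvap and Selp) and Aplnr was lower. Of all genes, 9.24% were higher and 9.59% lower. The list's median log2 fold change was 1.61, against -0.00 over all genes. Selp (chr1:164115264-164150026 on the plus strand) was at 15.6, 11.3 and 51.0 CPM in high-fat diet and 14.9, 29.7 and 156 CPM in control Vwf-gated sums, against 0.971 to 4.36 CPM on the high-fat diet and 1.90 to 3.02 CPM in controls in Gpihbp1-gated sums. Its log2 fold change was 3.75 (SE 0.75, adjusted p = 0.00321, edgeR quasi-likelihood, Benjamini-Hochberg), with no overlap of the sums, as for 1.33% of all genes on the higher side. Lrg1 rose by 2.499 and Plvap by 1.75 on the same scale. Aplnr ran opposite in the 2 comparisons: its Vwf-gated sums, at 7.82 to 98.9 CPM, lay above most Gja5/Bmx/Gkn3-gated sums and mostly below Gpihbp1-gated sums, at 69.4 to 236 CPM.

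Weibel-Palade body and haemostasis genes were higher in 7 of 14 cases, against 9.24% of all genes, and lower in none. The 7 were Selp, the tetraspanin Cd63, endothelin (Edn1), the protein C receptor Procr, the tissue factor inhibitor Tfpi, the ectonucleotidase Entpd1 and thrombospondin (Thbs1). Against Gja5/Bmx/Gkn3-gated cells, 0 of the 14 were higher and 3 were lower (F2r, Procr and Thbs1), against 3.51% of all genes. The list's median log2 fold change in that comparison was -0.42. Vcam1 was at 422, 73.7 and 204 CPM in high-fat diet and 37.2, 208 and 292 CPM in control Vwf-gated sums, against 18.5 to 44.3 CPM on the high-fat diet and 20.2 to 23.1 CPM in controls in Gpihbp1-gated sums. The difference was 2.65 on the log2 scale (SE 0.49, adjusted p = 0.00343, edgeR quasi-likelihood, Benjamini-Hochberg), and only control sample 1, at 37.2 CPM, overlapped the capillary values. Among luminal genes, 5 of 12 were higher (Bgn, Clu, Eln, Gata6 and Sulf1) and Ednrb was lower. All 6 smooth muscle markers also had positive values here (median 0.84), and Myh11 was called, with summed levels of 6889 to 18327 CPM on the high-fat diet and 761 to 17685 CPM in controls in Vwf-gated sums against 4369 to 12321 CPM on the high-fat diet and 1147 to 9697 CPM in controls in Gpihbp1-gated sums. Pooled Bgn was at 1558 CPM in Vwf-gated cells under 1% smooth muscle markers and 2433 CPM in the smooth muscle-rich ones, and Eln at 1288 and 1995 CPM. The part of smooth muscle RNA in the luminal values was not tested.

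Interferon-induced genes and MHC class I genes were lower than in Gpihbp1-gated cells, in 11 of 17 and 8 of 11 cases, against 9.59% of all genes. At the stricter Vwf gate 3 of each were lower, against 4.44% of all genes. Rsad2, an antiviral enzyme, averaged 4.61 CPM in Vwf-gated sums and 153 to 279 CPM on the high-fat diet and 141 to 260 CPM in controls in Gpihbp1-gated sums. Klf2 was lower too, with a log2 fold change of -0.73 (adjusted p = 0.00208, edgeR quasi-likelihood, Benjamini-Hochberg). With 2 or more Vwf UMIs the Klf2 value was -0.11 and did not pass (adjusted p = 0.769, edgeR quasi-likelihood, Benjamini-Hochberg).

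Fewer venular and haemostatic genes passed when Vwf was required in both classes. That requirement also left 19 to 63 Gpihbp1-gated cells a sample, against 182 to 521 without it, and 4130 tested genes. Whether Vwf, cell number or depth lowered the values below was not tested. When Gpihbp1-gated cells also had to carry a Vwf UMI, 242 genes were higher and 298 lower, and Selp (log2 fold change 1.43, adjusted p = 0.278), Lrg1 (1.09, adjusted p = 0.382), Vcam1 (1.32, adjusted p = 0.169) and Edn1 (0.74, adjusted p = 0.357) no longer passed edgeR's quasi-likelihood test with Benjamini-Hochberg adjustment. Ackr1 (0.96, adjusted p = 0.0431) and Bmp4 (1.29, adjusted p = 0.000973) did pass the same edgeR test with Benjamini-Hochberg adjustment. By default the filter on low counts left Ackr1 untested. The level of Ackr1 in Vwf-gated cells contributed to its passing that filter here, so its call is no independent support for a difference.

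**Figure D4:**
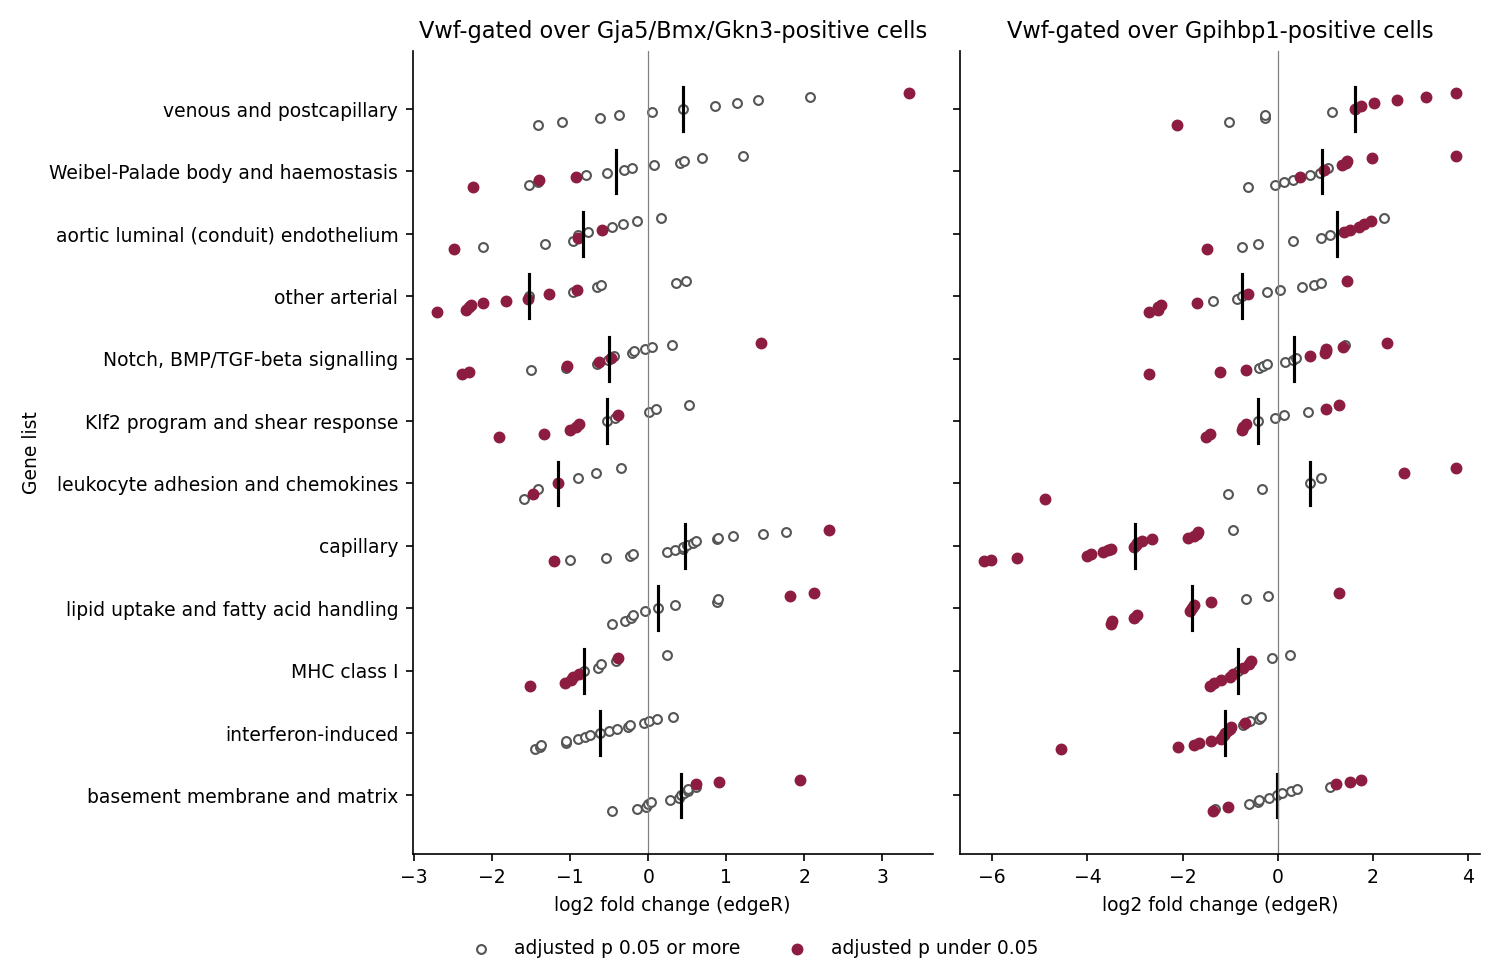
Log2 fold changes (edgeR) of the tested genes of each list in Vwf-gated cells over Gja5/Bmx/Gkn3-gated cells and over Gpihbp1-gated cells, with genes at an adjusted p under 0.05 filled and the median of each list as a line. Arterial genes lie left of 0 in the first comparison (median -1.53) and capillary genes far left of 0 in the second (median -3.00).

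The diets were compared by the share of Vwf-gated cells and by their summed counts. Vwf-gated cells made up 3.73%, 4.74% and 2.67% of endothelial-gated cells in the high-fat diet samples and 6.08%, 5.21% and 5.01% in the controls. The groups did not overlap, and the means were 3.72% ± 1.04 on the high-fat diet and 5.43% ± 0.57 in controls (SD, n = 3 each; two-sided exact permutation test, p = 0.1, the smallest that 3 against 3 allows). Since a gate on UMIs depends on depth, cells were also thinned before gating, and the groups then overlapped. At 2000 UMIs per cell the shares were 6.23%, 7.69% and 3.76% on the high-fat diet and 9.09%, 6.51% and 4.96% in controls (two-sided exact permutation test, p = 0.5). At 1000 UMIs per cell the shares also overlapped (exact permutation p = 1.0), as they did at 4000 (exact permutation p = 0.8). Among cells of barcode suffix 1 the shares overlapped, with means of 3.53% on the high-fat diet and 4.54% in controls, while among those of suffix 2 they did not, with 4.13% on the high-fat diet and 6.06% in controls.

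No gene passed the test of diet within Vwf-gated cells. Of 1830 genes tested over 6 sums, 0 were called by edgeR's quasi-likelihood test (0.0%) and 0 by DESeq2, and 60 had an unadjusted edgeR p under 0.05. In data simulated at this depth, 9% of genes with a 2-fold change and 67% with a 4-fold change were recovered. The sums held 78387 to 352874 UMIs on the high-fat diet and 95914 to 268763 UMIs in controls. Klf2 had a log2 fold change of 0.62 (SE 0.67) and Vcam1 of 0.34 (SE 0.88) between the diets. Their levels, given above, overlapped between the diets.

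Heat shock chaperones had the smallest unadjusted p-values. Hsp90aa1 was at 563, 802 and 434 CPM in high-fat diet and 246, 158 and 136 CPM in control Vwf-gated sums, without overlap, and its log2 fold change was 1.65 (SE 0.33, adjusted p = 0.979, edgeR quasi-likelihood, Benjamini-Hochberg). Hspa8 was at 1572, 1448 and 1135 CPM on the high-fat diet and 502, 673 and 532 CPM in controls, again without overlap. Hspb1, a small heat shock protein, was at 1103, 1304 and 702 CPM on the high-fat diet and 487, 346 and 188 CPM in controls, and the endoplasmic reticulum chaperone Hspa5 at 524, 731 and 319 CPM on the high-fat diet against 234, 208 and 136 CPM in controls. Such non-overlap was common: 126 of 1830 genes (6.89%) had all high-fat diet sums above all controls and 67 (3.66%) had them below. Heat shock genes had positive log2 fold changes in 7 of 8 cases (median 0.69) and unfolded protein response genes in 8 of 8 (median 0.41), against 919 of all 1830 genes. MHC class II genes had negative values in 4 of 4 cases (median -0.76) and MHC class I genes in 6 of 6 (median -0.45).

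Hsp90aa1 was also higher in the high-fat diet samples of the other 2 classes. It was at 397, 512 and 339 CPM in high-fat diet and 257, 161 and 124 CPM in control Gja5/Bmx/Gkn3-gated sums, and at 338, 582 and 491 CPM in high-fat diet and 279, 173 and 155 CPM in control Gpihbp1-gated sums. The groups were separate in both classes. The difference between classes in the diet effect was 0.53 (SE 0.28) against the arterial gate and 0.51 (SE 0.27) against the Gpihbp1 gate on the log2 scale, and neither passed (adjusted p = 1.00 and 0.999, edgeR quasi-likelihood, Benjamini-Hochberg). Over all genes, the interaction of class and diet gave 0 calls in either comparison, with 190 and 151 genes at an unadjusted p under 0.05. All 6 smooth muscle markers also had positive values by diet (median 0.61), with the summed ranges given above, and the 1 pericyte marker that could be tested was at 2.12. Fibroblast markers had negative values in 5 of 5 cases (median -0.46) and macrophage markers in 3 of 3 (median -0.41). Summed erythroid markers ran from 704 to 23448 CPM on the high-fat diet and 685 to 15140 CPM in controls. The part of RNA from other cell types in the diet values was not tested.

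**Figure D5:**
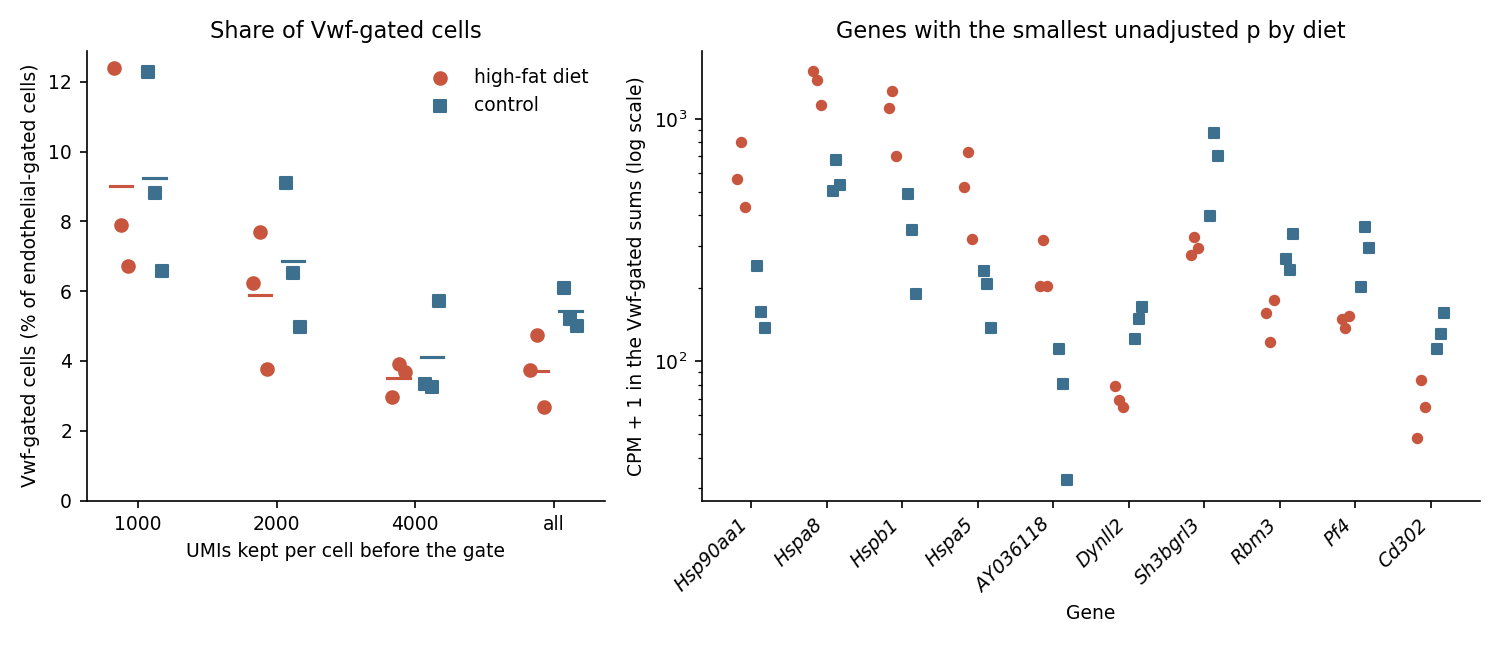
Left, Vwf-gated cells as a percentage of endothelial-gated cells in each sample, with all UMIs and after thinning each cell to 1000, 2000 or 4000 UMIs, high-fat diet left of control, with lines at the mean of 3 samples. Right, CPM in the Vwf-gated sums (log scale, 1 added) of the genes with the smallest unadjusted p by diet, of which none passed adjustment.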

How the data were processed

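The deposited matrices hold raw UMI counts of 27998 genes in each cell, made with Cell Ranger 3.0 on mm10 per the submitters' processing notes. Cell calling and annotation are not given in the sources used here. Gene coordinates are from GENCODE on GRCm38. Members and gene lists were chosen with earlier results of these data known.

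Cells with at least 300 genes and under 20% mitochondrial counts were gated on raw UMIs. Doublets were scored per barcode suffix of a sample with Scrublet (scanpy 1.11.5, rate set to 0.06), and all were kept. Counts were summed per sample and class (at least 10 cells a sum) and tested with edgeR 4.0.16 (R 4.3.3; robust quasi-likelihood fit, filterByExpr defaults, TMM normalization), and p-values were adjusted by Benjamini-Hochberg with a threshold of 0.05. Class comparisons used the sample as a block and a joint fit of 18 sums; the diet fit used the 6 Vwf-gated sums. The 11 genes of the rule were left out of the tests. Named genes are members of the lists and the 10 largest called changes in each direction with at least 50 CPM and 1 sign in every sample. For diet, where none was called, they are the 5 smallest unadjusted p-values in each direction among genes with at least 50 CPM in the higher diet. Scripts were tested on simulated counts. Alternatives covered DESeq2 1.42.0, other gates, thinning, barcode suffixes and samples left out.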

Additional observations from a re-analysis of the deposited data

Results flagged for a closer look

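Of 45 sets of 6 per-sample values examined for 1 sample far from the others, 2 stood out, and chance gives about 1 in 20. The log2 difference of Adh7 between Vwf-gated and Gja5/Bmx/Gkn3-gated sums (10 CPM added) was -1.45 in control sample 1, against -4.36 to -3.51 in the other 5. Adh7 was at 11.2 CPM in Vwf-gated and 47.9 CPM in Gja5/Bmx/Gkn3-gated cells of that sample. The log2 difference of Rsad2 between Vwf-gated and Gpihbp1-gated sums was -2.45 in high-fat diet sample 2, against -4.75 to -3.91 in the others, with 19.8 CPM in Vwf-gated and 153 CPM in Gpihbp1-gated cells. These are the samples with the most smooth muscle-rich Vwf-gated cells, and the part of those cells was not tested.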

How the results depend on the processing

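The 378 genes called against Gja5/Bmx/Gkn3-gated cells became 250 with at least 5 endothelial UMIs, 728 without the filter on low counts, 93 without the sample block, 106 after thinning to 2000 UMIs, 58 with 2 or more Vwf UMIs, 9 in barcode suffix 2, 126 without control sample 1 and high-fat diet sample 2 (a choice made after the data were seen), and 192 to 489 with 1 sample left out, lowest without control sample 1 or high-fat diet sample 2 and 206 without high-fat diet sample 1. The 1078 called against Gpihbp1-gated cells became 540 when those had to carry Vwf, 623 without the block, 535 thinned, 474 with 2 or more Vwf UMIs, 552 in suffix 1 and 290 in suffix 2, and stayed within 1.5 times with any 1 sample left out. Of the 58 calls at the stricter Vwf gate 38 were among the 378, and of the 474, 367 were among the 1078. The 0 diet calls became 9 without the filter, 13 in suffix 1, where only 1 control sample had a sum (assumed to vary like the 3 high-fat diet samples), and 0 to 1 with 1 sample left out (1 without control sample 1), while suffix 2 gave no value. Class-by-diet calls were 1 without control sample 1 in either comparison, and 1 against Gpihbp1-gated cells without the filter. The cause of these changes was not tested. The high-fat diet minus control share, -1.72 percentage points, ran between -2.23 and -1.19 with 1 sample left out and was -0.22 thinned to 1000 UMIs, -0.96 at 2000 and -0.59 at 4000. The groups also overlapped with at least 1000 genes, 5 endothelial UMIs or 2 Vwf UMIs (-1.39, -1.19 and -1.14). They did not overlap without cells above the doublet score limit (-1.58) or with under 10% mitochondrial UMIs (-1.67). Nor did they with smooth muscle markers under 1% (-1.87) or without control sample 1 and high-fat diet sample 2 (-1.91), both chosen after the data were seen. These settings were not thinned. Replicate numbers did not pair the samples (correlations 0.023, -0.133 and 0.174), and with the replicate block the diet test still gave 0 calls. Pairs of unlike number ran from -0.267 to 0.339, the highest being high-fat diet sample 2 with control sample 1. Log2 fold changes that reversed were, against Gja5/Bmx/Gkn3-gated cells, Tie1 0.37, Erg 0.084, Icam1 0.12, Slc9a3r2 0.019 and Col1a2 -0.52 after thinning, Col4a1 -0.10, Smtn -0.17 and Acvrl1 0.038 with 2 or more Vwf UMIs, and Smtn -1.08 in suffix 2. Against Gpihbp1-gated cells they were Mecom 0.0028, Tie1 0.21 and Col1a2 -0.58 after thinning, and Col1a2 -0.0013 and Myh11 -0.74 with 2 or more Vwf UMIs. By diet they were Sh3bgrl3 0.019 after thinning, Pf4 0.36 with at least 5 endothelial UMIs, and Vcam1, which ran between -0.48 (without high-fat diet sample 1) and 0.96 with 1 sample left out and was -0.27 without control sample 1. With 21 to 38 Vwf-gated cells a sample, genes of low abundance such as Ackr1 were not tested by default.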
